A study of Mus musculus with 11 samples.

Results

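The early response of NIH-3T3 cells to AS1411 was taken from the 6 libraries made after 24 h, 3 from cells given 10 µM AS1411 and 3 from cells given 10 µM of a control DNA oligonucleotide, out of 11 libraries in all. NIH-3T3 is an established line of mouse embryonic fibroblasts, labelled wild type, and every group was grown in the same serum-containing medium. The other 5 libraries, 2 with AS1411 and 3 with the control oligo after 48 h, were used here to tell which early changes were still present a day later. All 13040 genes that passed a filter on low counts entered the comparison. No untreated cells were among the libraries, so every difference is between the oligonucleotides.

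AS1411 is a guanine-rich DNA aptamer that folds into G-quadruplexes and binds nucleolin, a protein of the nucleolus that takes part in ribosomal RNA synthesis and is also found at the cell surface of dividing cells. Growing cells spend much of their transcription on the machinery of protein synthesis, and dividing cells switch on a shared set of genes in G2 and mitosis, many of which carry a CHR element (cell cycle genes homology region) or CCAAT boxes near their start sites. The oligonucleotides are shown because they define the comparison, with runs of repeated guanine or cytosine in capitals.
AS1411: GGtGGtGGtGGttgtGGtGGtGGtGG
control: CCtCCtCCtCCttctCCtCCtCCtCC
Each was 26 bases long with 8 such runs. The control had a cytosine wherever AS1411 had a guanine, 17 in each, and both had 9 thymines.

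Total counts in the 24 h libraries were 13541951 to 18784497. A principal component analysis of these libraries separated AS1411 from control along the first component, which held 46.6% of the variance. The second component, with 15.8%, set control replicate 3 apart from the others. Fibroblast genes were present as the label says: Col1a1, a chain of collagen I, was at 1490 to 1760 CPM (counts scaled to library size) over the 6 libraries. Of 10 fibroblast markers 8 were in the count table, which lacked Thy1 and Lum, and none rose and 2 fell with AS1411. Col3a1 was low, at 5.17 to 6.43 CPM with AS1411 and 4.99 to 5.91 CPM in control cells. Markers of epithelium summed to at most 0.134 CPM, those of blood to at most 7.45 CPM and those on a list for neurons, of which 2 of 5 were in the table, to 57.8 to 69.8 CPM, with none of these called. For muscle 1 of 5 markers was in the table. It was called higher, at 0.757 to 1.37 CPM with AS1411 and 0.293 to 0.671 CPM in control cells. Nothing in the labels says that replicates came from separate cultures, and each p-value therefore reflects sample-to-sample spread that may be technical.

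After 24 h, 3878 genes (29.7%) differed between the oligonucleotides: 1702 (13.1%) were higher and 2176 (16.7%) were lower with AS1411 than with the control oligo, at an adjusted p under 0.05 by edgeR's quasi-likelihood test. The changes were mostly small: 864 of the higher genes and 1616 of the lower genes moved by less than 1.25-fold, and the median log2 fold change was 0.32 among the former and -0.24 among the latter. The lower genes were concentrated among strongly expressed ones. Of the 3260 genes with the highest level 1304 were lower and 294 higher, whereas of the 3260 genes just below the median level 271 were lower and 630 higher. Lower genes had a median GC content of 47.7% and higher genes of 51.9%, against 49.7% for all tested genes. With library-size scaling in place of TMM, which moved the median of all genes from 0.01 to 0.09 on the log2 scale, 2884 genes were higher and 1201 lower, so the share of higher genes among those called went from 43.9% to 70.6%.

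Classes of transcript outside the protein-coding genes were called less often than the 13.1% higher and 16.7% lower of all tested genes, a difference that was not tested. The classes were not matched for level, and of the 3260 genes of lowest level only 217 were higher and 76 lower. Of 213 long intergenic noncoding transcripts 22 rose (10.3%) and 2 fell (0.939%), and of 249 antisense transcripts 13 rose (5.22%) and 3 fell (1.2%). Of 466 processed pseudogenes, which can take reads from their parent genes, 4 were higher (0.858%) and 43 lower (9.23%). Counting by strand is not given in the sources used here, so antisense transcripts and their partners cannot be told apart.

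The gene with the best supported rise was Pdrg1, which encodes a small subunit of a prefoldin-like complex. It was at 69.1, 69.5 and 65.9 CPM with AS1411 and at 35.3, 33.6 and 36.9 CPM in control cells. Its log2 fold change was 0.95 ± 0.06 (SE, n = 3 and 3, adjusted p = 1.99e-08). Lox, which encodes the enzyme that crosslinks collagen and elastin, was at 1152, 1071 and 1070 CPM against 754, 724 and 722 CPM, a log2 fold change of 0.58 ± 0.04. The groups were far apart for both genes. Also among the 10 higher genes with the smallest adjusted p were the RNA helicase gene Ddx17 (0.39 ± 0.03), the CASTOR family gene Castor2 (0.97 ± 0.09), Gadd45g (0.64 ± 0.06), which is induced by stress, the prion protein gene Prnp (0.46 ± 0.04), the nuclear noncoding RNA Firre (0.73 ± 0.07) and the calcium channel gene Trpv4 (0.54 ± 0.06). Ndrg4 (0.73 ± 0.06) and Carhsp1 (0.42 ± 0.04) completed them, and both of these rose further by 48 h, to 1.46 and 1.05.

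Among lower genes that met the naming rule, with an average log2 CPM from 2 upward, Gpx1, the main cytosolic glutathione peroxidase, had the smallest adjusted p. It was at 111, 115 and 116 CPM with AS1411 and at 231, 232 and 223 CPM in control cells, a log2 fold change of -1.001 ± 0.06 (adjusted p = 1.99e-08). Gjb2, a connexin of gap junctions, was at 296, 284 and 270 CPM against 467, 465 and 452 CPM (-0.70 ± 0.05). By 48 h the fall in Gjb2 had deepened to -2.18. The adhesion molecule gene Alcam (-0.67 ± 0.05), the mitotic kinase genes Plk1 (-0.64 ± 0.04) and Aurka (-0.64 ± 0.05), the ribosomal stalk protein gene Rplp0 (-0.51 ± 0.04), the RNA-binding protein gene Hnrnpa0 (-0.47 ± 0.04) and Slc25a4 (-0.45 ± 0.04), the ADP/ATP carrier of mitochondria, were in the same group of 10, with Hmox1 and Kif23, which are described below. Nucleolin itself (Ncl) was at 2296, 2386 and 2411 CPM against 3412, 3535 and 3464 CPM, a log2 fold change of -0.55 ± 0.08 (adjusted p = 4.69e-04).

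**Figure D1:**
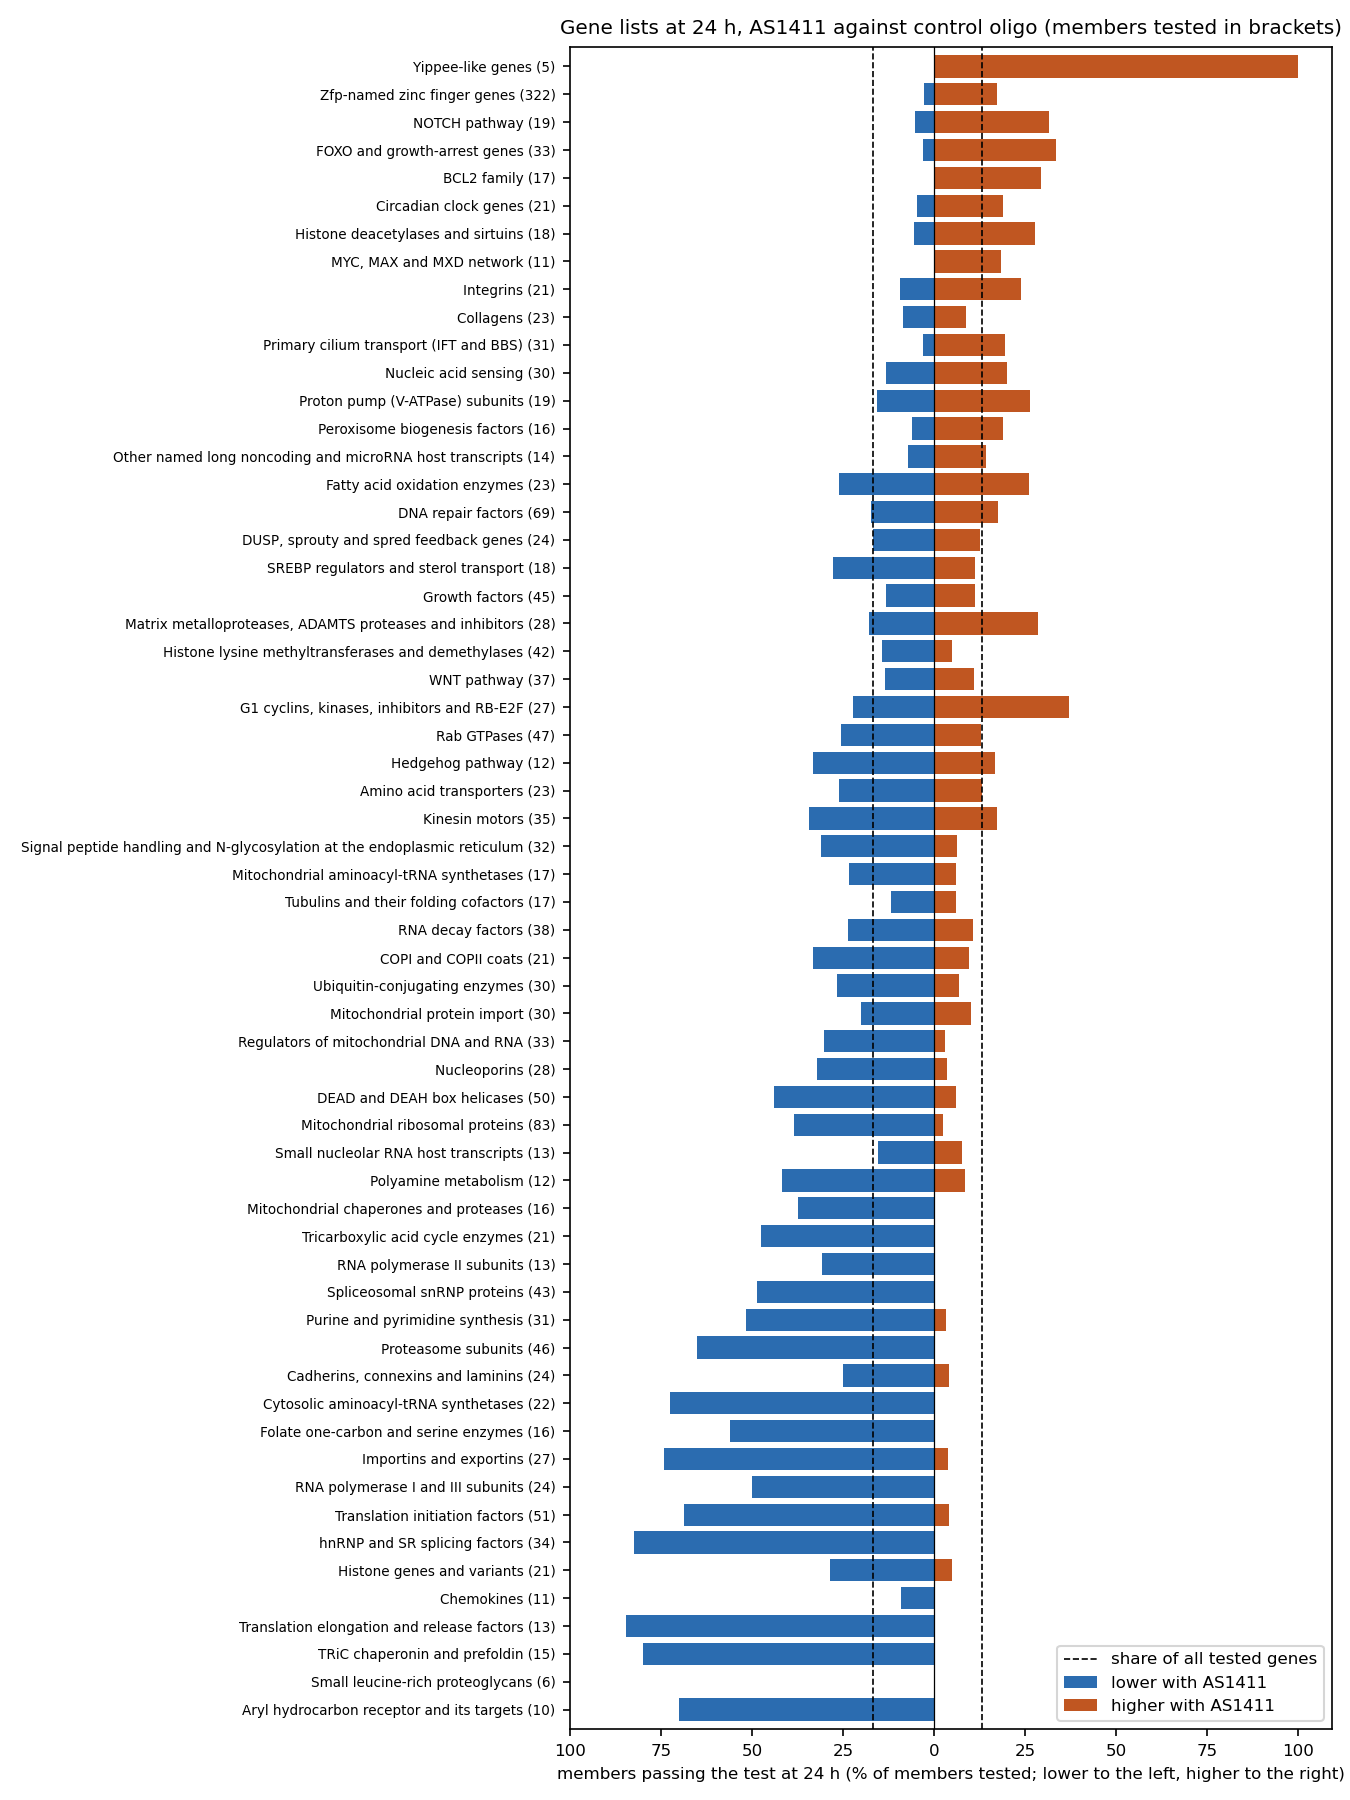
Share of tested members of 60 gene lists that were lower (left, blue) or higher (right, orange) with AS1411 at 24 h, in percent, with lists ordered by their median log2 fold change. Dashed lines give the shares over all tested genes, 16.7% lower and 13.1% higher, and hnRNP and SR proteins, elongation factors, the TRiC chaperonin with prefoldin, importins and synthetases each have over 70% of members lower. The lists were not matched for expression level.

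Many genes of RNA processing and nuclear transport fell, each by a little. The lists here and below were not matched for level, and of the 3260 genes of highest level 1304 were lower. Of 34 genes for hnRNP and SR proteins, which bind pre-mRNA and steer splicing, 28 fell and 0 rose. Their median log2 fold change was -0.23, against 0.01 over all tested genes. Srsf3 was at 204, 197 and 203 CPM against 254, 266 and 266 CPM (-0.38 ± 0.04, adjusted p = 3.25e-06), and Hnrnpd was at -0.39 ± 0.04. The proteins of the spliceosomal snRNPs and their partners fell for 21 of 43 genes, among them Sf3b3 (-0.38 ± 0.05) and Prpf19 (-0.29 ± 0.04), and none rose. With library-size scaling 10 of them fell, and 13 without control replicate 2 at 24 h. Of 27 importins, exportins and their partners 20 fell, including the main export receptor Xpo1 (-0.32 ± 0.04) and the GTPase Ran (-0.29 ± 0.03). With library-size scaling 9 fell, and 13, 11 and 12 fell without AS1411 replicate 1, control replicate 2 and control replicate 3 at 24 h. The single rise in that list was Tnpo2 (0.29 ± 0.04), which encodes transportin-2. Of 50 DEAD and DEAH box helicases 22 fell and 3 rose (15 and 8 with library-size scaling). Dhx15 fell (-0.49 ± 0.04) while Ddx17 rose.

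Subunits of the RNA polymerases that make ribosomal and transfer RNA, and their factors, fell for 12 of 24 genes and rose for none. With library-size scaling 7 fell, as without AS1411 replicate 2 or control replicate 2 at 24 h. Taf1d, a subunit of the polymerase I selectivity factor, was at 64.7, 56.5 and 58.9 CPM against 85.9, 93.4 and 91.1 CPM (-0.59 ± 0.08), and Ubtf, which opens ribosomal DNA for transcription, was at -0.27 ± 0.04. For RNA polymerase II 4 of 13 subunits fell and none rose, but with library-size scaling 4 rose and 2 fell, so no direction is given for that list. Nucleoporins fell for 9 of 28 and rose for 1, and with library-size scaling 3 fell and 3 rose. With 1 library left out 3 to 13 nucleoporins and 3 to 11 RNA decay factors fell, the fewest without control replicate 1 at 24 h for the former and without AS1411 replicate 1 or control replicate 2 for the latter. RNA decay factors fell for 9 of 38 and rose for 4, which also turned with library-size scaling (2 lower and 6 higher).

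Factors of protein synthesis were also lower in large part. Of 51 translation initiation factor genes 35 fell and 2 rose (median -0.20). Eif4b was at 679, 683 and 688 CPM against 882, 882 and 872 CPM (-0.36 ± 0.04, adjusted p = 2.46e-06). Eif5a, which helps ribosomes past stretches of proline, was at 1639, 1734 and 1714 CPM against 2253, 2226 and 2191 CPM (-0.39 ± 0.04). Neither gene had overlapping groups. Elongation and release factors fell for 11 of 13 genes (median -0.29), for example Gspt1 (-0.36 ± 0.04) and Eef1g (-0.33 ± 0.04). Cytosolic aminoacyl-tRNA synthetases and their scaffold proteins fell for 16 of 22 genes and rose for none, and with library-size scaling 7 fell. Aimp1 (-0.31 ± 0.04), Dars (-0.29 ± 0.04) and Kars (-0.25 ± 0.04) had the smallest adjusted p there.

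The TRiC chaperonin and prefoldin, which fold actin, tubulin and other new proteins, fell for 12 of 15 subunits (median -0.30, and -0.22 with library-size scaling), and none rose. Cct8 was at 687, 714 and 750 CPM against 920, 965 and 920 CPM (-0.38 ± 0.04), and Cct4 changed by -0.36 ± 0.04. Of 46 proteasome subunits 30 fell and none rose (median -0.15). Psmc5 was at 236, 237 and 240 CPM against 288, 291 and 293 CPM (-0.29 ± 0.04, adjusted p = 1.59e-05). With library-size scaling 11 proteasome subunits fell and 2 rose, while 16 fell when AS1411 replicate 1 at 24 h was left out and 17 when control replicate 1 was. Ubiquitin-conjugating enzymes fell for 8 of 30 genes and rose for 2, and 3 fell and 2 rose with library-size scaling. With 1 library left out 3 to 9 of these enzymes fell, the fewest without control replicate 2 at 24 h. Ube2c (-0.34 ± 0.05), which works with the anaphase-promoting complex, was the best supported of them.

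Nuclear genes for mitochondria were lower in part, while the transcripts that mitochondria encode themselves took 1.29 to 1.71% of counts with AS1411 and 0.713 to 0.897% in control cells. Of 83 mitochondrial ribosomal proteins 32 fell (38.6%) and 2 rose (median -0.10), and with library-size scaling 10 fell and 4 rose. Of all tested genes 16.7% fell, but of the 3260 genes of highest level 1304 did, and whether the list differed from genes of like level was not tested. Without AS1411 replicate 1, control replicate 1 and control replicate 2 at 24 h 18, 20 and 17 fell. Mrpl15 was at 65.9, 66.5 and 74.1 CPM against 87.9, 88.8 and 88.3 CPM (-0.36 ± 0.05). Tricarboxylic acid cycle enzymes fell for 10 of 21 genes and rose for none, against 5 and 2 with library-size scaling and 6 lower without control replicate 1 or 2 at 24 h, among them Mdh2 (-0.18 ± 0.04) and Sdha (-0.20 ± 0.04). Mitochondrial chaperones and proteases fell for 6 of 16 genes, for example the chaperonin pair Hspd1 (-0.37 ± 0.04) and Hspe1 (-0.33 ± 0.04). Regulators of mitochondrial DNA and RNA fell for 10 of 33 genes and rose for 1, against 4 and 4 with library-size scaling and 4 to 11 lower with 1 library left out, the fewest without AS1411 replicate 1 at 24 h, and they included Nrf1 (-0.22 ± 0.05) and Gabpa (-0.29 ± 0.05), transcription factors of respiratory genes. Import factors fell for 6 of 30 genes and rose for 3, mitochondrial synthetases fell for 4 of 17 and rose for 1, and with library-size scaling these turned to 1 and 4 and to 1 and 3. Fatty acid oxidation enzymes were split, with 6 of 23 higher and 6 lower (7 and 4 with library-size scaling, and 3 higher without AS1411 replicate 3 at 24 h).

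In nucleotide and methyl-group metabolism, 16 of 31 genes of purine and pyrimidine synthesis fell and 1 rose (12 and 5 with library-size scaling). Impdh2, the enzyme that commits precursors to guanine nucleotides, was at 50.1, 53.0 and 49.3 CPM against 72.6, 72.4 and 72.4 CPM (-0.51 ± 0.06, adjusted p = 4.29e-06). Atic (-0.43 ± 0.04) and Gmps (-0.38 ± 0.05), enzymes of the same pathway, also fell. Folate and serine enzymes fell for 9 of 16 genes and rose for none, against 4 and 1 with library-size scaling and 5 lower without control replicate 1 at 24 h, with the S-adenosylmethionine synthetase gene Mat2a (-0.46 ± 0.06) and Mthfd1 (-0.22 ± 0.04) among them. Polyamine genes fell for 5 of 12 and rose for 1, which turned to 1 and 2 with library-size scaling and to 1 lower without AS1411 replicate 1 or control replicate 2 at 24 h, and spermidine synthase (Srm) changed by -0.27 ± 0.04. Amino acid transporters fell for 6 of 23 genes and rose for 3, for 5 and 4 with library-size scaling and for 3 lower without AS1411 replicate 1 or control replicate 1 at 24 h. Regulators of sterol synthesis and transport fell for 5 of 18 genes and rose for 2: the sterol-responsive factor Srebf2 fell (-0.41 ± 0.05) and the lysosomal cholesterol exporter Npc1 rose (0.40 ± 0.05).

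The higher genes included growth-arrest and signalling genes. All 5 tested Yippee-like genes, a small conserved family whose best known member marks quiescent cells, rose in each of the scalings tried, and 3 did without AS1411 replicate 2, AS1411 replicate 3 or control replicate 1 at 24 h. Ypel3 was at 13.5, 11.7 and 11.3 CPM against 6.26, 5.71 and 6.46 CPM (0.98 ± 0.15), and Ypel5 was at 19.8, 17.6 and 17.6 CPM against 12.3, 13.8 and 12.8 CPM (0.50 ± 0.10). Among 33 FOXO and growth-arrest genes 11 rose and 1 fell, with Castor2 and Gadd45b (0.42 ± 0.07) higher. The 11 became 6 without AS1411 replicate 1 or 3 and 7 without control replicate 2 or 3 at 24 h. The BCL2 family, which sets the threshold for apoptosis, had 5 of 17 members higher and none lower, and 2 higher without AS1411 replicate 2 and 3 without AS1411 replicate 1, AS1411 replicate 3 or control replicate 2 at 24 h. The pro-survival gene Bcl2l2 (0.35 ± 0.07) and the pro-death genes Pmaip1 (0.50 ± 0.12) and Bad (0.25 ± 0.07) were all higher. For Bad the call was lost under 5 alternatives. Members with opposite roles therefore rose side by side. The MYC antagonist Mxd4 was at 33.3, 32.8 and 32.8 CPM against 21.6, 21.6 and 20.03 CPM (0.64 ± 0.10). Of 11 genes of that network 2 rose, a share near the 13.1% of all genes.

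Regulators of the G1 phase went both ways, with 10 of 27 higher and 6 lower. The higher ones held both brakes on and drivers of entry into S phase. The cyclin-dependent kinase inhibitor gene Cdkn1a (0.57 ± 0.11) and the retinoblastoma gene Rb1 (0.30 ± 0.08), named here after their values had been seen, rose, as did the atypical E2F repressor gene E2f8 (0.29 ± 0.05). The driver genes E2f1 (0.26 ± 0.04) and cyclin E2 (Ccne2) rose too, and Ccne2 was at 104, 103 and 102 CPM against 85.2, 84.7 and 84.8 CPM (0.28 ± 0.04, adjusted p = 1.45e-04). Cyclin D1 (Ccnd1), named here after its values had been seen, fell (-0.31 ± 0.05). A list of 43 S phase genes, added after the values had been seen, had 9 higher and 10 lower members at 24 h (19 and 5 with library-size scaling), and at 48 h 24 of them were higher. Of all tested genes 13.1% were higher and 16.7% lower at 24 h, and 29.4% were higher at 48 h. DNA repair factors had 12 of 69 higher and 12 lower, against 22 and 7 with library-size scaling, 10 and 16 with GC and length offsets and 6 higher without AS1411 replicate 1 at 24 h.

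Zinc finger genes with Zfp names, most of which encode repressors of transcription, rose for 55 of 322 (17.1%) and fell for 9 (2.8%). Of all tested genes 13.1% rose and 16.7% fell, so the share that rose was near that of all genes. The median log2 fold change was 0.14, and 36 rose without control replicate 1 at 24 h. Level was not matched, and of the 3260 genes just below the median level 630 were higher and 271 lower. Zfp57, which protects methylation at imprinted genes, was at 46.3, 44.3 and 43.9 CPM against 32.8, 31.0 and 36.0 CPM (0.43 ± 0.07). Among 18 histone deacetylases and sirtuins 5 rose and 1 fell. NOTCH pathway genes rose for 6 of 19 and fell for 1, among them the ubiquitin ligase gene Dtx3 (0.41 ± 0.08) and Hes6 (0.38 ± 0.08). Of 31 transport genes of the primary cilium 6 were higher and 1 lower, where 13.1% of all tested genes were higher, and Ift46 was at 0.30 ± 0.06. Subunits of the lysosomal proton pump rose for 5 of 19 and fell for 3. With GC and length offsets these splits narrowed to 3 and 3 for deacetylases, 5 and 3 for NOTCH genes and 4 and 3 for the proton pump. Without AS1411 replicate 1 at 24 h 2 deacetylases and sirtuins and 3 NOTCH genes rose.

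Further lists had mixed or few calls, and no direction is given for those whose split turned with another setting. Of all tested genes 13.1% were higher and 16.7% lower. The WNT pathway (10.8% and 13.5%), growth factors (11.1% and 13.3%) and DUSP, sprouty and spred genes (12.5% and 16.7%) were near those shares. Clock genes had 4 of 21 higher and 1 lower, integrins 5 of 21 and 2, peroxisome factors 3 of 16 and 1, matrix proteases and their inhibitors 8 of 28 and 5, and nucleic acid sensors 6 of 30 and 4. With GC and length offsets the splits were 1 and 2 for clock genes, 2 and 2 for integrins, 5 and 6 for matrix proteases and 3 and 6 for nucleic acid sensors. Without AS1411 replicate 1 at 24 h no clock gene, 2 integrins, 3 matrix proteases and 3 nucleic acid sensors were higher. Histone genes and variants had 1 of 21 higher and 6 lower, with the replacement histone gene H3f3b at -0.41 ± 0.03. Cadherins, connexins and laminins had 1 of 24 higher and 6 lower. The connexin gene Gja1 (-0.37 ± 0.04) fell beside Gjb2. Rab GTPases had 6 of 47 higher and 12 lower, factors for signal peptides and N-glycosylation 2 of 32 and 10, and COPI and COPII coats 2 of 21 and 7, and with library-size scaling these turned to 9 and 5, 7 and 2, and 2 and 0. Kinesins had 6 of 35 higher and 12 lower, tubulins 1 of 17 and 2, the WNT pathway 4 of 37 and 5, the Hedgehog pathway 2 of 12 and 4, growth factors 5 of 45 and 6, and DUSP, sprouty and spred genes 3 of 24 and 4. With library-size scaling these became 7 and 9 for kinesins, 3 and 0 for tubulins, 7 and 3 for WNT, 3 and 1 for Hedgehog, 6 and 5 for growth factors and 8 and 2 for DUSP, sprouty and spred genes. Histone lysine methyltransferases and demethylases had 2 of 42 higher and 6 lower (8 and 0 with library-size scaling), collagens 2 of 23 and 2, small nucleolar RNA hosts 1 of 13 and 2, other named noncoding and microRNA hosts 2 of 14 and 1, and chemokines 0 of 11 and 1. None of 6 small leucine-rich proteoglycans passed the test at 24 h, by edgeR, and 5 of them were lower at 48 h, where 28.5% of all tested genes were.

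**Figure D2:**
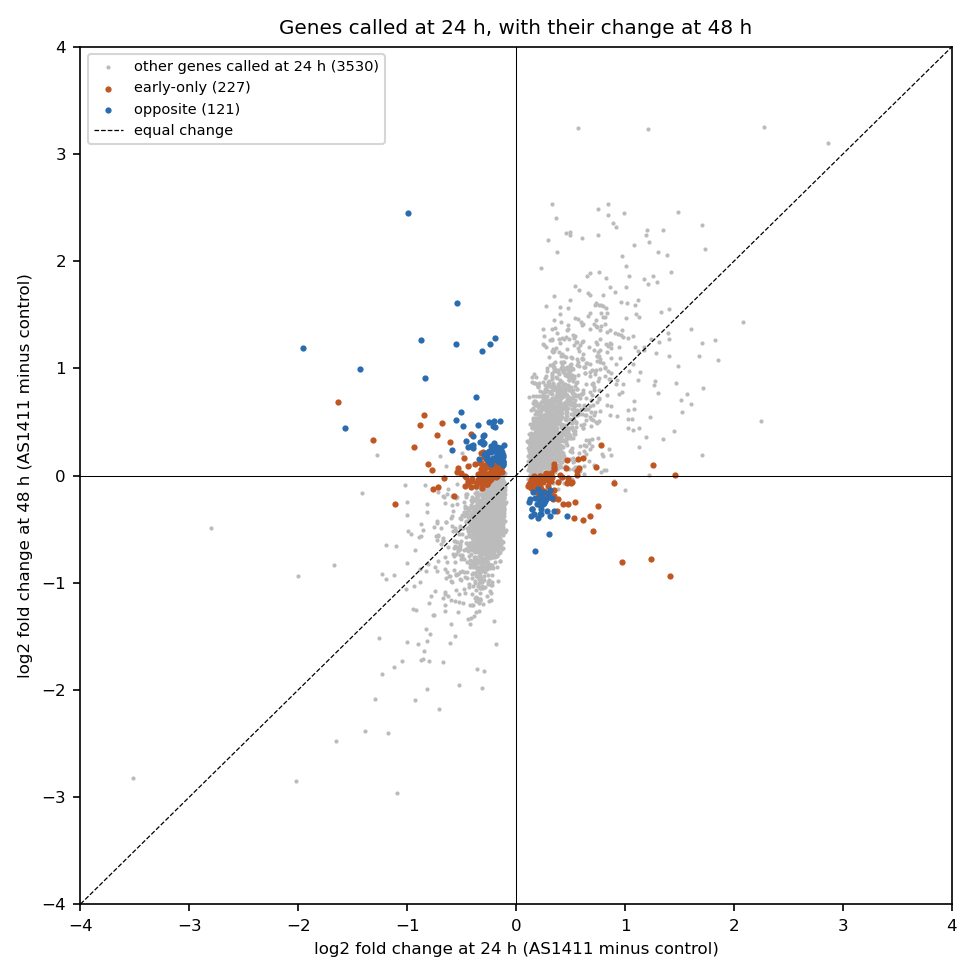
Log2 fold change of AS1411 against control at 24 h (horizontal) and at 48 h (vertical) for the 3878 genes called at 24 h, 1 point per gene. Orange points are the 227 genes changed at 24 h alone, blue points the 121 genes changed in opposite directions, and most grey points lie in the quadrants of equal sign.

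Most early changes were still there at 48 h. Of the 1702 genes higher at 24 h 1264 were also higher at 48 h, and of the 2176 lower genes 1729 were also lower. A gene was counted as early-only where it was called at 24 h, not called at 48 h, and the difference between the changes at the 2 times was itself called. By that rule 101 genes (0.775% of those tested) were early-only and higher, and 126 (0.966%) were early-only and lower. The groups at 48 h held 2 and 3 libraries. A further 121 genes (0.928%) changed in opposite directions at the 2 times. The counts depended on the libraries: without control replicate 2 at 24 h they were 51, 81 and 64, and without control replicate 2 at 48 h they were 153, 172 and 247. Leaving out AS1411 replicate 1 at 24 h gave 53, 93 and 81. With library-size scaling 111, 78 and 127 genes had these classes, but only 37, 38 and 46 of them were the same genes.

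Of the 8 early-only falls named by the rule, 5 were genes of cell division. Kif23, a kinesin of the central spindle that is needed for cytokinesis, was at 106, 110 and 106 CPM with AS1411 and at 153, 158 and 157 CPM in control cells at 24 h. Its log2 fold change was -0.54 ± 0.04 (adjusted p = 1.07e-07). At 48 h Kif23 stood at 148 and 155 CPM against 146, 155 and 143 CPM, and the difference between the 2 changes was -0.58 ± 0.06 (adjusted p = 2.28e-06). The separation seen at 24 h was gone a day later. Cenpe, the kinesin that carries chromosomes to the spindle equator, was at 70.8, 69.8 and 59.9 CPM against 102, 105 and 111 CPM (-0.66 ± 0.07). It was at 128 and 117 CPM against 114, 128 and 130 CPM at 48 h. Cenpe kept its early-only call under all 21 alternatives tried.

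Tpx2, which activates the Aurora A kinase on spindles, fell to 276, 274 and 268 CPM from 333, 336 and 340 CPM (-0.30 ± 0.04). Kif20a, a kinesin of cytokinesis, was at 192, 198 and 193 CPM against 270, 265 and 269 CPM (-0.47 ± 0.04). Its relative Kif20b was at 149, 146 and 144 CPM against 183, 183 and 181 CPM (-0.32 ± 0.04). At 48 h none of these 3 genes passed the test. With library-size scaling Kif23, Tpx2 and Kif20b were no longer early-only, while Cenpe was.

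**Figure D3:**
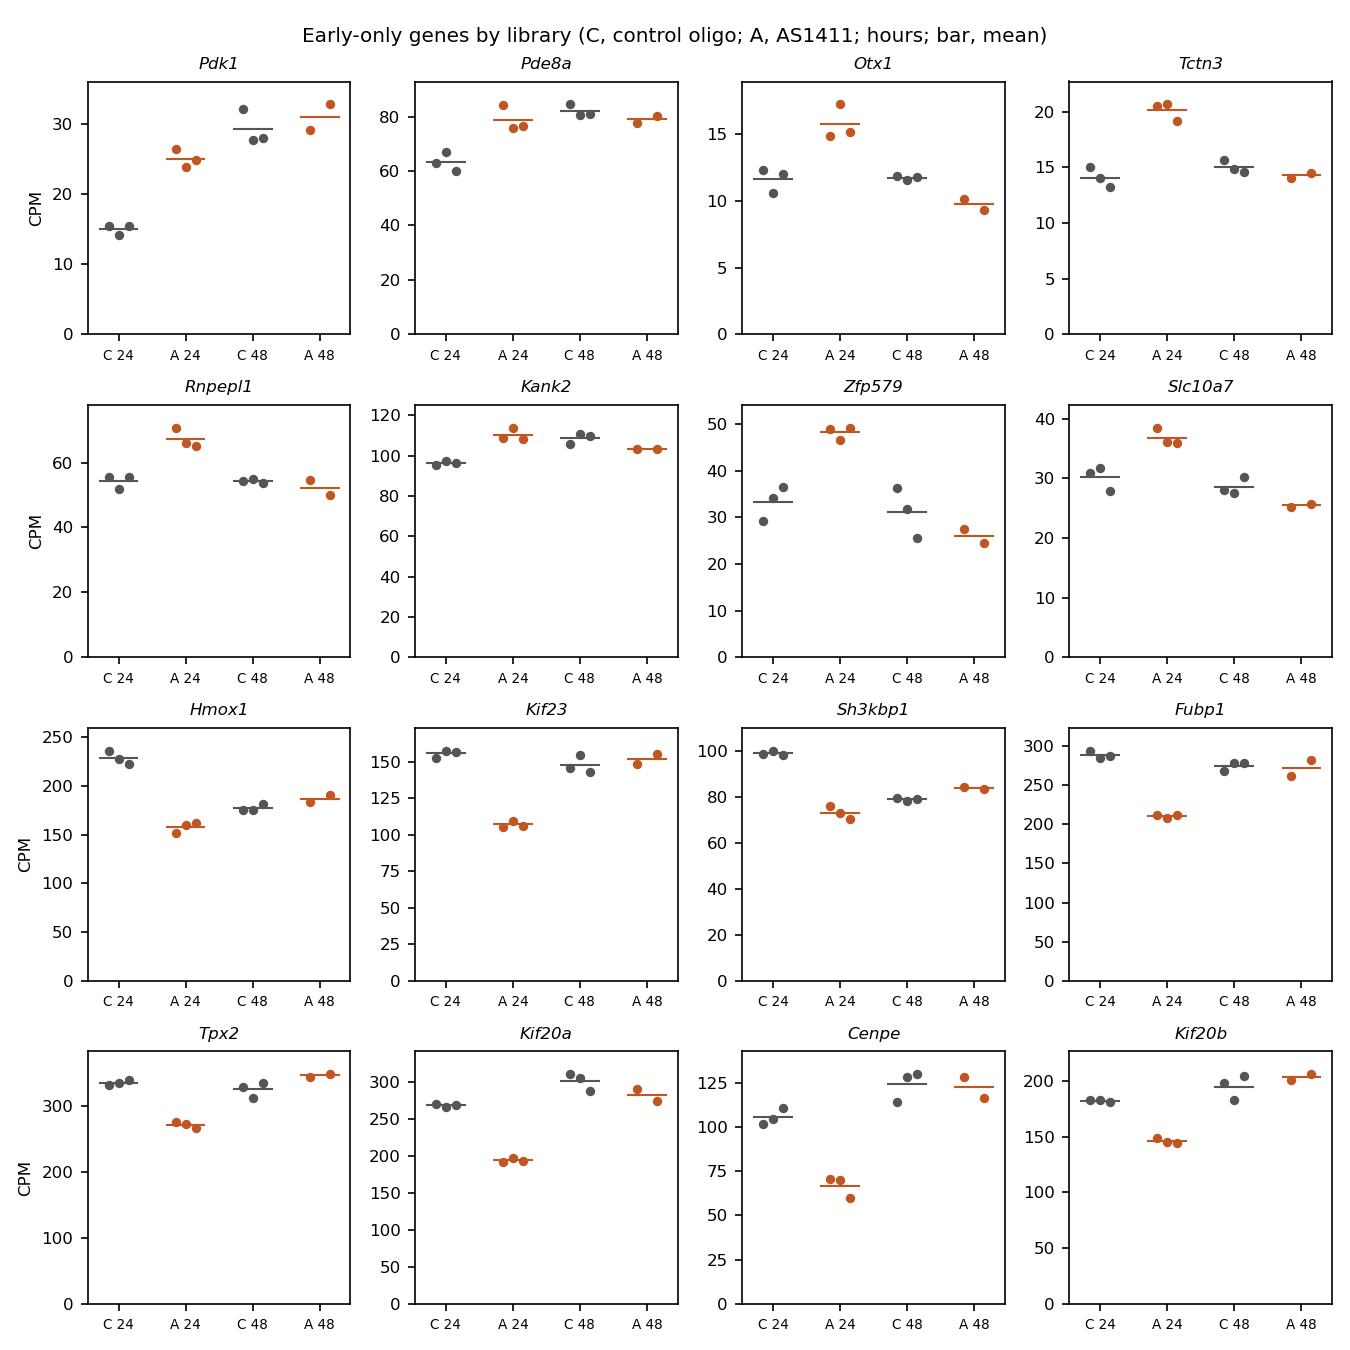
CPM of 16 early-only genes in each library, with the mean of each group as a bar. C and A stand for control oligo and AS1411 and 24 and 48 for hours. For Kif23 and Cenpe AS1411 libraries lie below controls at 24 h and overlap them at 48 h, whereas for Hmox1 and Pdk1 the control level itself differed between the times.

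Other early-only falls had different histories. Hmox1, the enzyme that breaks down heme, was at 152, 160 and 162 CPM against 236, 228 and 223 CPM at 24 h (-0.54 ± 0.04). At 48 h it was at 183 and 191 CPM against 176, 175 and 181 CPM. The control level was lower at the later time and the AS1411 level higher. Sh3kbp1, an adaptor in receptor endocytosis, was at 76.3, 72.9 and 70.3 CPM against 99.0, 100 and 98.3 CPM (-0.44 ± 0.04), and its controls were at 79.5, 78.4 and 79.4 CPM at 48 h. Fubp1, a single-strand DNA-binding protein that acts on the Myc gene, was at 212, 208 and 212 CPM against 294, 285 and 288 CPM (-0.46 ± 0.04). At 48 h its groups overlapped at 262 and 283 CPM against 269, 278 and 279 CPM.

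Some translation genes were early-only as well, and the genes of this paragraph are named after their values had been seen. Among initiation factors 5 were early-only and lower: Eif3a (-0.30 ± 0.05), Eif3c (-0.17 ± 0.04), Eif3d (-0.21 ± 0.04), Eif5 (-0.26 ± 0.04) and Eif2b1 (-0.12 ± 0.04). Eif3a was at 880, 866 and 865 CPM against 1056, 1056 and 1094 CPM at 24 h, and at 1004 and 1037 CPM against 924, 1089 and 976 CPM at 48 h. The synthetase genes Rars (-0.26 ± 0.04), Lars (-0.29 ± 0.05) and Hars (-0.15 ± 0.04) did the same. Also early-only and lower were the tumour suppressor gene Trp53, at 412, 426 and 419 CPM against 488, 488 and 479 CPM (-0.21 ± 0.04), and B2m, the light chain of MHC class I, at -0.20 ± 0.04. The histone methyltransferase gene Ezh2 (-0.20 ± 0.05) was in the same set.

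The G2 and mitosis genes were examined as a list of 54, added after the values had been seen. At 24 h 45 of them fell, where 16.7% of all tested genes did, and 9 did not pass the test (median log2 fold change -0.26). At 48 h 23 were lower and 9 were higher, where 28.5% and 29.4% of all tested genes were. Of the 45 genes lower at 24 h, 21 were lower at 48 h as well, 19 were not called at 48 h, of which 10 were early-only, and 5 were higher at 48 h. The list thus held genes of 3 histories. Aurka, Cdc20 (-0.56 ± 0.05), which activates the anaphase-promoting complex, and Top2a (-0.35 ± 0.05), the topoisomerase of dividing cells, were lower at both times. Ccnb2, a B-type cyclin at 92.9, 96.8 and 96.4 CPM against 119, 113 and 118 CPM (-0.29 ± 0.05), and Hmmr, at -0.37 ± 0.06, were early-only. Dlgap5, Kif2c, Ckap2, Hmgb2 and Rangap1 were lower at 24 h and higher at 48 h. With library-size scaling 34 of the 54 genes fell and 1 rose, and without control replicate 3 at 24 h 36 fell.

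**Figure D4:**
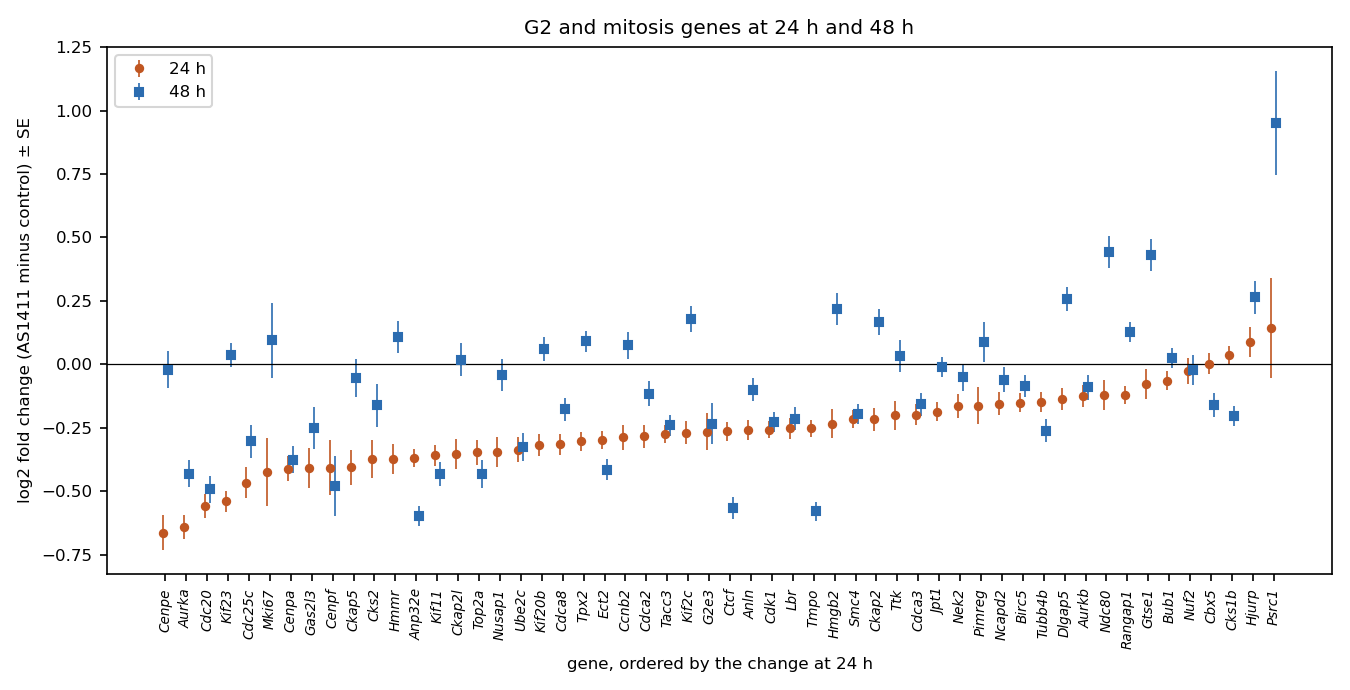
Log2 fold change ± SE of AS1411 against control for 54 G2 and mitosis genes, with orange circles for 24 h and blue squares for 48 h. At 24 h 45 genes fell, and at 48 h the values spread to both sides of 0.

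The promoters of these genes are shown for 3 early-only kinesins because they carry the elements known from G2 and mitosis genes. RefSeq promoters on GRCm38.p6 covered 47 of the 54 genes with 52 promoters, each reaching from 250 bases before to 50 bases after the start of transcription. The short motifs sought on either strand were the CHR element (TTTGAA), its variant TTCGAA, the CCAAT box (CCAAT) and the E-box (CACGTG). Matches to all but the E-box stand in capitals. The CHR element and the CCAAT box can each appear as the reverse complement.
Kif23, chr9:61946750-61947049, minus strand: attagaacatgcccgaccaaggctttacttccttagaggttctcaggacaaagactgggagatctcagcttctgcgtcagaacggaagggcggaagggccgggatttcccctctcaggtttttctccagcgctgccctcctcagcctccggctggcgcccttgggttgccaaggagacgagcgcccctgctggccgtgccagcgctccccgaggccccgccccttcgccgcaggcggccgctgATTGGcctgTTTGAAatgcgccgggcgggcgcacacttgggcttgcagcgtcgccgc
Kif20b, chr19:34922108-34922407, plus strand: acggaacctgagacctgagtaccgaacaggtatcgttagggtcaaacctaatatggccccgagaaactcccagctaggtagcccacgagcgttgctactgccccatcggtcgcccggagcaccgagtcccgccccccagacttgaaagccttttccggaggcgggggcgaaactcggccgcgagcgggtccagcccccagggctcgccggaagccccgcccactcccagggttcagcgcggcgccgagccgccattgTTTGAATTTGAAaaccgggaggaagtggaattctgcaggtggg
Cenpe, chr3:135212313-135212612, plus strand: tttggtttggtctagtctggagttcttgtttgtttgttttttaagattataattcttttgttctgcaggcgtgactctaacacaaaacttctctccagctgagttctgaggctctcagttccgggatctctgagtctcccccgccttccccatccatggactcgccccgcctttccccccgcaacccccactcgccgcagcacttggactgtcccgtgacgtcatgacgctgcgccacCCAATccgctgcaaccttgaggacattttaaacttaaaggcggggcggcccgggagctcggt
The Kif23 promoter had a CCAAT box in reverse followed closely by a CHR element, Kif20b had 2 adjoining CHR elements and Cenpe had a CCAAT box. The CHR element stood in 34 of the 52 promoters of the list (65.4%) and in 11.9% of the 12291 promoters of all tested genes. A CCAAT box stood in 75% and 38.1%, the TTCGAA variant in 9.62% and 2.1%, and an E-box in 5.77% and 10.1%. Early-only lower genes as a whole had a CHR element in 16.8% of 131 promoters, and early-only higher genes in 8.04% of 112. A CCAAT box stood in 38.9% and 26.8% of these. All genes lower at 24 h had a CHR element in 13.4% and a CCAAT box in 37.6% of promoters, near the shares of all tested genes. For all genes higher at 24 h the shares were 10.6% and 38.0%. A match describes the letters in this window and does not show that a factor bound there.

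Among early-only rises the return to the control level came about in different ways. Pdk1, a kinase that inhibits pyruvate dehydrogenase, was at 26.5, 23.9 and 24.9 CPM with AS1411 and at 15.5, 14.2 and 15.5 CPM in control cells at 24 h (0.74 ± 0.09, adjusted p = 7.07e-06). At 48 h it was at 29.2 and 32.9 CPM against 32.3, 27.8 and 28.1 CPM. The control level had come up to that of the AS1411 cells. Pde8a, which degrades cyclic AMP, had the same pattern, at 84.2, 76.0 and 76.8 CPM against 62.9, 67.1 and 60.0 CPM at 24 h (0.32 ± 0.05), with controls at 84.5, 80.8 and 81.2 CPM at 48 h.

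Tctn3, a protein of the ciliary transition zone, was at 20.5, 20.7 and 19.2 CPM against 15.04, 14.0 and 13.2 CPM (0.51 ± 0.08). At 48 h it was at 14.1 and 14.5 CPM against 15.7, 14.9 and 14.6 CPM, so here the AS1411 level came back to that of controls. Zfp579 was at 48.9, 46.6 and 49.2 CPM against 29.2, 34.1 and 36.4 CPM (0.54 ± 0.11) and Otx1, a homeobox transcription factor, at 14.9, 17.2 and 15.2 CPM against 12.3, 10.6 and 12.03 CPM (0.43 ± 0.10). Rnpepl1 (0.31 ± 0.05), Slc10a7 (0.29 ± 0.07) and Kank2 (0.19 ± 0.04), a regulator of the actin cytoskeleton, were the others named by the rule. With GC and length offsets 85 genes were early-only and higher, of which 43 were among the 101.

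The mitochondrially encoded gene mt-Cytb, named here after its values had been seen, was also early-only and higher. It was at 2853, 2121 and 2217 CPM against 1232, 1161 and 1473 CPM at 24 h (0.90 ± 0.17, adjusted p = 0.00557). At 48 h it was at 1319 and 1260 CPM against 1272, 1620 and 1180 CPM. AS1411 replicate 1 at 24 h had the highest value. The early-only call held in 14 of 21 alternatives.

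Genes that moved in opposite directions at the 2 times were mostly lower first. Of the 121 genes 84 were lower at 24 h and higher at 48 h, and 37 the reverse. Resf1, a silencing factor of endogenous retroviruses, was at 46.9, 52.9 and 47.1 CPM against 65.4, 72.3 and 77.8 CPM at 24 h (-0.55 ± 0.06). At 48 h it was at 172 and 170 CPM against 68.9, 74.8 and 74.4 CPM (1.23). Arrdc3, an arrestin-domain adaptor of receptor trafficking, was at 31.1, 29.8 and 28.9 CPM against 44.3, 48.8 and 37.3 CPM (-0.54 ± 0.08), and later at 90.9 and 101 CPM against 31.6, 32.7 and 29.9 CPM. The control level of these genes was steadier than that of Plk2. Plk2, a stress-responsive polo kinase gene, was at 716, 691 and 669 CPM against 829, 810 and 818 CPM at 24 h (-0.24 ± 0.05), and at 855 and 907 CPM against 357, 414 and 358 CPM at 48 h.

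**Figure D5:**
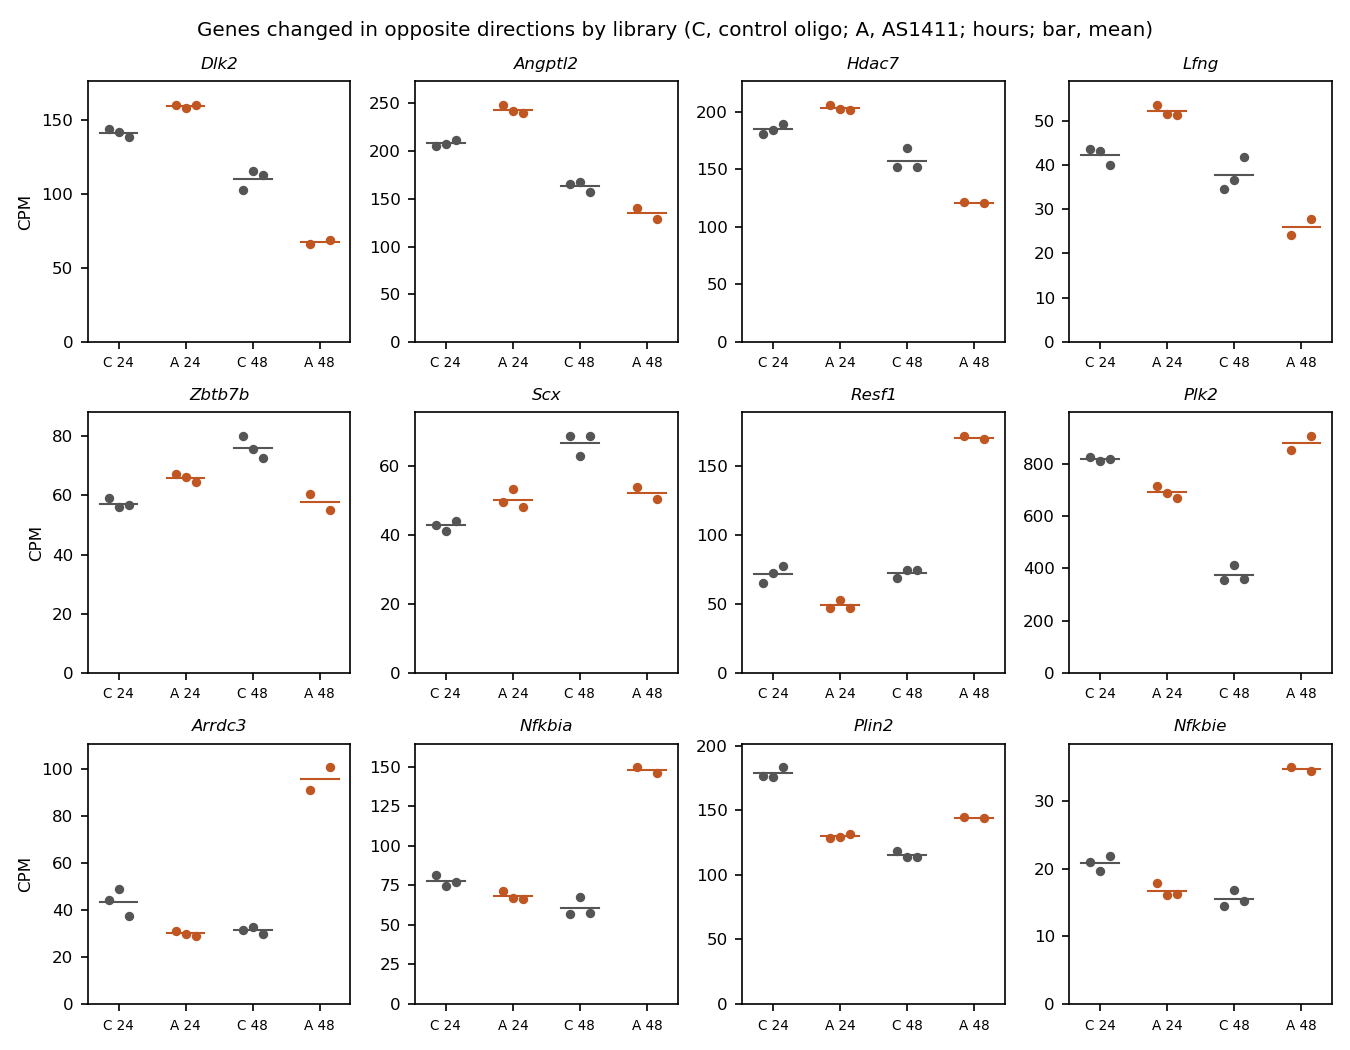
CPM of 12 genes that changed in opposite directions, in each library, with the mean of each group as a bar. C and A stand for control oligo and AS1411 and 24 and 48 for hours. Resf1, Arrdc3, Nfkbia and Nfkbie lie below controls at 24 h and above them at 48 h.

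Nfkbia and Nfkbie, inhibitors of the transcription factor NF-kB of inflammation, belonged to this group, while other inhibitors did not: Nfkbib was not called at 24 h (-0.05, adjusted p = 0.686) and Nfkbiz was higher (0.27, adjusted p = 0.0167). Nfkbia was at 71.3, 67.1 and 66.4 CPM against 81.7, 74.5 and 77.3 CPM at 24 h (-0.19 ± 0.06, adjusted p = 0.0224), a call that was lost under 6 alternatives. At 48 h it was at 150 and 146 CPM against 57.0, 67.5 and 57.7 CPM. Nfkbie was at 17.9, 16.1 and 16.2 CPM against 21.1, 19.6 and 21.9 CPM (-0.32 ± 0.08) and at 35.0 and 34.5 CPM against 14.5, 16.8 and 15.3 CPM later. In a list of 16 subunits and inhibitors, added after the values had been seen, 4 were higher and 3 lower at 24 h, and 12 were higher at 48 h. Of all tested genes 13.1% were higher and 16.7% lower at 24 h, and 29.4% were higher at 48 h. With library-size scaling 5 were higher and 1 lower at 24 h. Plin2, the coat protein of lipid droplets, was at 128, 129 and 132 CPM against 177, 176 and 183 CPM (-0.46 ± 0.04).

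Genes first higher and then lower with AS1411 had small early changes. Dlk2, a membrane protein related to NOTCH ligands, was at 160, 158 and 160 CPM against 143, 142 and 139 CPM (0.17 ± 0.04), and at 66.2 and 69.0 CPM against 102, 116 and 113 CPM at 48 h. Lfng, a glycosyltransferase that modifies NOTCH, was at 53.5, 51.6 and 51.3 CPM against 43.7, 43.2 and 39.9 CPM (0.30 ± 0.07). The secreted protein gene Angptl2 (0.23 ± 0.04), Zbtb7b (0.20 ± 0.05), the tendon transcription factor gene Scx (0.23 ± 0.06) and Hdac7 (0.14 ± 0.04) followed the same course. The 24 h call of Hdac7 was lost under 8 alternatives and those of Dlk2 and Zbtb7b under 2 each.

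Some genes of xenobiotic and oxidant defence were lower early. All 7 called genes among 10 tested of the aryl hydrocarbon receptor list fell. Its classical target Cyp1a1 was at 1.77, 1.90 and 2.16 CPM against 6.07, 6.25 and 5.06 CPM (-1.57 ± 0.17), and at 5.76 and 5.02 CPM against 4.08, 3.43 and 4.41 CPM at 48 h. Nqo1, a quinone reductase, was at 14.96, 14.0 and 15.4 CPM against 21.5, 21.3 and 17.5 CPM (-0.44 ± 0.09). Both were higher with AS1411 at 48 h, as was Tiparp. The cochaperone gene Ptges3 (-0.31 ± 0.04) stayed lower. A list of 31 genes of NRF2, the transcription factor of oxidant defence, and its targets was added after the values had been seen. At 24 h 15 of them were lower, 3 were higher and 13 did not pass the test. Of all tested genes 16.7% were lower and 13.1% higher. Of the 15 lower genes 9 were lower at 48 h as well, 2 were not called at 48 h and 4 were higher. Nfe2l2, which encodes NRF2, was at 104, 104 and 100 CPM against 128, 124 and 123 CPM (-0.28 ± 0.04), and higher at 48 h (0.19). Txnrd1 (-0.25 ± 0.05) and Ugdh (-0.16 ± 0.04) took the same course.

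The largest fitted fold change among all tested genes was in a gene of low level. Rpph1, the RNA subunit of RNase P, which trims the ends of transfer RNA precursors, was at 0.82, 1.096 and 0.53 CPM with AS1411 and at 8.54, 9.74 and 9.10 CPM in control cells. Its log2 fold change was -3.52 ± 0.23 (adjusted p = 1.99e-08). At 48 h the change was -2.82, with controls at 1.38, 1.96 and 2.51 CPM. Rpph1 lies on chromosome 14 at 50807449 to 50807767 (GRCm38) on the minus strand, where its span overlaps that of Ccnb1ip1, and the part of that overlap in the result was not tested. The neighbouring gene Parp2 was at 47.2, 45.0 and 43.7 CPM against 46.8, 48.0 and 46.7 CPM (-0.06 ± 0.06, adjusted p = 0.489). RNase P RNA is not polyadenylated as a rule and the libraries were made by poly(A) selection.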

How the data were processed

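The authors deposited raw counts per gene for 15022 genes and 11 libraries of poly(A)-selected RNA, with no total under 8 counts. Per the submitters' processing notes, reads passed through bcl2fastq, cutadapt, STAR, HTSeq and DESeq2 on GRCm38, with versions and strandedness not given in the sources used here. The deposited normalized table was not used. Groups came from the sample titles. edgeR 4.0.16 (R 4.3.3) fitted a robust quasi-likelihood model with 1 coefficient per group to all 11 libraries (TMM scaling, filterByExpr, 7 residual degrees of freedom), which left 13040 genes. Tests were two-sided with Benjamini-Hochberg adjustment over all genes and a threshold of 0.05. CPM are scaled by TMM. The model was tested on simulated counts. Names and biotypes came from GENCODE M21 (14973 identifiers matched and 49 did not), and motifs from RefSeq promoters.

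The members and the 60 gene lists were chosen with earlier results of these data known, and 4 lists were added after the values had been seen. Named genes (average log2 CPM from 2 upward, no predicted, clone-named or pseudogene names) were, per direction, the 10 of lowest adjusted p whose libraries did not overlap, up to 8 early-only and up to 6 opposite genes in each direction by interaction p, up to 3 members of each list by adjusted p at any level, and Ncl. Alternatives were other scalings (library size, median of ratios, upper quartile), the DESeq2 1.42.0 Wald test, other filters, an adjusted p under 0.01, the 24 h libraries alone, offsets for GC content and length, a replicate block, another early-only rule and leaving out each replicate. Libraries of a group at 24 h differed by 1.499 to 2.947 in chi-square per gene, above sampling noise, so none was counted as a duplicate. At 48 h the AS1411 pair differed by 3.685. Control pairs at 48 h differed by 8.388 and 11.22 with replicate 2 and by 4.432 without it. Some genes that these rules would name are not reported here.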

Additional observations from a re-analysis of the deposited data

Results flagged for a closer look

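The genes named for a change at 24 h that differed from the change at 48 h were listed because the difference between the 2 effects itself passed the test (edgeR, adjusted over all genes). Each value here is the log2 fold change at 24 h minus that at 48 h. Among early-only rises it was 0.66 for Pdk1, 0.37 for Pde8a, 0.70 for Otx1, 0.58 for Tctn3, 0.36 for Rnpepl1, 0.27 for Kank2, 0.79 for Zfp579 and 0.45 for Slc10a7. Adjusted p-values of these differences ran from 5.69e-04 for Pdk1 to 0.00317 for Slc10a7.

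Among early-only falls the difference was -0.61 for Hmox1, -0.58 for Kif23, -0.52 for Sh3kbp1, -0.44 for Fubp1, -0.39 for Tpx2, -0.37 for Kif20a, -0.64 for Cenpe and -0.38 for Kif20b. The smallest adjusted p was 8.88e-07 for Hmox1.

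For genes higher first and lower later it was 0.88 for Dlk2, 0.50 for Angptl2, 0.52 for Hdac7, 0.84 for Lfng, 0.60 for Zbtb7b and 0.59 for Scx. For genes lower first and higher later it was -1.79 for Resf1, -1.47 for Plk2, -2.15 for Arrdc3, -1.47 for Nfkbia, -0.78 for Plin2 and -1.48 for Nfkbie.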

How the results depend on the processing

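No named gene changed sign while called under the alternatives run, but the split of higher against lower members turned with library-size scaling for many lists, and their counts are given beside them. Higher genes at 24 h (1702) became 2884 with library-size scaling, 2719 with the 24 h libraries alone and 898 at an adjusted p under 0.01, and lower genes (2176) became 1201 with library-size scaling and 1403 at an adjusted p under 0.01. Early-only higher genes (101) became 65 with DESeq2 and 26 at an adjusted p under 0.01. Early-only lower genes (126) became 78 with library-size scaling, of which 38 were among the 126, and 67 at an adjusted p under 0.01. By the other early-only rule they were 214. That rule takes a change at 48 h that is much smaller or of opposite sign, in place of no call. It therefore takes in the 84 opposite genes that were lower at 24 h. Opposite genes (121) became 39 at an adjusted p under 0.01. Leaving out 1 library gave 1122 to 2225 higher, 1524 to 2544 lower, 51 to 153 early-only higher, 81 to 172 early-only lower and 64 to 247 opposite genes. Within these ranges, early-only higher genes were 53 and 62 without AS1411 replicates 1 and 2 at 24 h, early-only lower genes 82 without control replicate 1 at 24 h, and opposite genes 76 without AS1411 replicate 2 at 24 h, 73 without it at 48 h and 80 without either control replicate 1 or control replicate 3 at 24 h. The cause was not tested.

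Replicate numbers did not pair the libraries at 24 h (correlations of -0.034, 0.002 and -0.046 for the same number). With a replicate block 2029 genes were higher, 2529 lower, 117 and 145 early-only and 187 opposite, and 184 were opposite with the block and GC and length offsets.

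Of 101 early-only higher genes 64 kept that class in most of 21 alternatives, as did 88 of 126 early-only lower and 93 of 121 opposite genes. In all 21 alternatives 1 early-only higher, 4 early-only lower and 13 opposite genes kept their class. Of 2640 list counts 482 moved by more than 1.5 times. The median SE of a log2 fold change was 0.308 among the 3260 genes of lowest level and 0.045 among the 3260 of highest.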
